A study of Mus musculus with 6 samples.

Results

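Gphb5, Myh11, Mmp10, C1s2 and Egfr are genes known mainly from endocrine, smooth muscle, connective tissue, liver and epithelial cells, and they were examined here in cultured mouse Th17 cells that had been given the RNA-editing enzyme ADAR2. They are 5 of the 55450 genes listed in each deposited table. They were chosen from the 10 genes with the highest log2 fold changes of ADAR2 WT over empty vector, counting only genes that passed the test, averaged 50 normalized counts or more and are not predicted genes. Their values in that comparison are therefore a description and not a finding. Cmpk2 ranked last of the 10 with a log2 fold change of 1.05, and the first genes outside were Irf7 and Nos2, both with 0.98. Egfr, the lowest of the 5, ranked 9. The other 4 of the 10 were Adarb1, Il9, Isg15 and Gadd45a.

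RNA-seq of ribosome-depleted RNA was made from 6 cultures, in 3 groups of 2. All cultures began as naive CD4+ T cells of 2 wild-type mice, 8 to 12 weeks old, named donors A and B below, and every group has 1 library from each mouse. The cells were activated with anti-CD3 (0.25 µg/mL) and anti-CD28 (1 µg/mL) in TGF-beta (0.1 ng/mL) and IL-6 (20 ng/mL), the cytokines that drive the Th17 state, and were transduced at 24 h with a retrovirus of the murine stem cell virus type (MSCV). They stayed in TGF-beta (0.3 ng/mL) and IL-6 (20 ng/mL) for another 48 h and were collected at 72 h. The retrovirus carried ADAR2_WT (the active enzyme), ADAR2_E396A (an enzymatically dead form) or no insert (the empty vector), called ADAR2 WT, ADAR2 E396A and empty vector below. Whether transduced cells were sorted is not given in the sources used here. RNA editing itself was not measured.

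The libraries held 16496328 to 21897166 reads in genes. Adarb1, which encodes ADAR2, was at 18422 and 18999 normalized counts with ADAR2 WT, at 15644 and 14920 with ADAR2 E396A, and at 3672 and 3333 with empty vector, so it was higher with both constructs in both donors. Reads of the transgene and the endogenous gene cannot be told apart. The T cell markers Cd3e and Cd4 were at 3731 to 4742 and 12013 to 15997 normalized counts over the 6 libraries. All 10 T cell markers summed to 66487.9 to 83855.1 with ADAR2 WT, 60043.0 to 101707.3 with ADAR2 E396A and 67605.2 to 71145.0 with empty vector. Markers of other cells were summed in the same way. The 8 smooth muscle and pericyte markers summed to 37.9 to 53.1 normalized counts with ADAR2 WT, 43.3 to 44.5 with ADAR2 E396A and 39.0 to 43.7 with empty vector, and Myocd, which drives the smooth muscle programme, was at 0 reads in all 6 libraries. The 7 epithelial markers summed to 9.2 to 29.1, 10.5 to 32.5 and 10.7 to 26.0 with ADAR2 WT, ADAR2 E396A and empty vector. The 7 fibroblast markers summed to 284.5 to 824.9 with ADAR2 WT, 194.1 to 838.5 with ADAR2 E396A and 209.3 to 647.6 with empty vector, nearly all of it Lum and Fn1. Lum, the gene of the matrix proteoglycan lumican, was higher in donor B in each group, at 649.6 against 190.3 with ADAR2 WT, 634.6 against 105.4 with ADAR2 E396A and 537.6 against 131.2 with empty vector (donor B against donor A). The 5 hepatocyte markers summed to 16.2 to 22.3, 11.3 to 17.7 and 5.8 to 22.9 in those groups, with Alb at 0. The 6 endothelial markers summed to 201.9 to 248.5 with ADAR2 WT, 266.0 to 348.7 with ADAR2 E396A and 201.6 to 309.3 with empty vector, mostly Pecam1. The 5 B cell markers summed to 31.1 to 55.4, 44.5 to 56.2 and 28.2 to 42.7 with ADAR2 WT, ADAR2 E396A and empty vector, and the 7 myeloid ones to 67.0 to 80.8, 55.2 to 88.9 and 65.6 to 86.7. The 5 mast cell and platelet markers summed to 38.8 to 46.1 with ADAR2 WT, 70.6 to 91.6 with ADAR2 E396A and 71.1 to 102.1 with empty vector. They did not move alike. Kit had a log2 fold change of -1.55 for ADAR2 WT over empty vector (SE 0.40, limma adjusted p = 0.145). Itga2b had 0.0007 (SE 0.30, limma adjusted p = 0.999), with 25.2 and 33.5 normalized counts with ADAR2 WT and 33.3 and 25.3 with empty vector. Cpa3, Pf4 and Ppbp had 5, 20 and 18 reads over all libraries and were not tested. The part of such cells in the results below was not tested.

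ADAR2 converts adenosine to inosine in double-stranded RNA, which can recode a protein, change a splice site or alter how long an RNA lasts. The E396A change replaces a glutamate of its active site and leaves a form without deaminase activity. The genes described here have unrelated products. Gphb5 encodes the beta subunit of thyrostimulin, a glycoprotein hormone that acts on the thyrotropin receptor, and Myh11 encodes the heavy chain of smooth muscle myosin. Mmp10 encodes stromelysin-2, a secreted protease that cleaves extracellular matrix. C1s2 is 1 of a pair of mouse genes for C1s, the serine protease of the first complement component. Egfr encodes the receptor tyrosine kinase for epidermal growth factor, amphiregulin and related ligands. None of the 5 is a defining gene of Th17 cells.

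The promoters are shown because genes that differ together between groups may be compared at their starts. RefSeq promoter windows of build GRCm38.p6, running from 250 bases before to 50 bases after the start, were found for 4 of the 5 genes, and Myh11 is named only. Capitals mark matches to 6 motifs searched on both strands.
Gphb5, chr12:75416732-75417031, minus strand: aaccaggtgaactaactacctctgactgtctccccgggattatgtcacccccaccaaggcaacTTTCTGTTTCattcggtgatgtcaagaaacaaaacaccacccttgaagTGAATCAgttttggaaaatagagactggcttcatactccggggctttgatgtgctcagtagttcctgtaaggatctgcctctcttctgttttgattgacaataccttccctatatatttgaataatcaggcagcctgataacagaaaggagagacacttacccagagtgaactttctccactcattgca
Mmp10, chr9:7502092-7502391, plus strand: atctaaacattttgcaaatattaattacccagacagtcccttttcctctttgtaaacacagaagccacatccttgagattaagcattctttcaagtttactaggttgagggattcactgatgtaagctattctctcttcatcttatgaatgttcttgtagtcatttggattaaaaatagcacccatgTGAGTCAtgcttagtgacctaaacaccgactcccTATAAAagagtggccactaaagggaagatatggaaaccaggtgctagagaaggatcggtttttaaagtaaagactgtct
C1s2, chr6:124636036-124636335, minus strand: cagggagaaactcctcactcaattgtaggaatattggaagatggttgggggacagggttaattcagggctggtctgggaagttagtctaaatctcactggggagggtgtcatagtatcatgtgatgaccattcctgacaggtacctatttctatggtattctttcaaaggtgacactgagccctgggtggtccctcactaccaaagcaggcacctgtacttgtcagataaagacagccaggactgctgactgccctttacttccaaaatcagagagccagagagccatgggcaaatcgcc
Egfr, chr11:16751953-16752252, plus strand: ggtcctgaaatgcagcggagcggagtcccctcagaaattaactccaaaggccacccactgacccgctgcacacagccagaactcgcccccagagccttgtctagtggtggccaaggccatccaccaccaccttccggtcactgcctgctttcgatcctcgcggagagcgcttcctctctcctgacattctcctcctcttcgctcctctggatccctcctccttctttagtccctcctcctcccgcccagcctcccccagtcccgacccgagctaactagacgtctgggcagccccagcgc

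The motifs were the TATA box (TATAAA), the AP-1 site (TGANTCA), the STAT site (TTCNNNGAA), the core of the interferon-stimulated response element, the SMAD-binding element (GTCTAGAC) and the CArG box of smooth muscle genes. The Mmp10 window held an AP-1 match 63 bases before the start and a TATA box 29 bases before it. The Gphb5 window held an AP-1 match 139 bases and an interferon-stimulated element core 187 bases before the start. None of the 6 motifs matched in the C1s2 and Egfr windows, which says only that these letters are not there. Of all 32851 promoter windows, 7.81% held the AP-1 letters, 13.6% the TATA box and 3.44% the interferon-stimulated element core. The rest were held by 8.3% (STAT), 0.21% (SMAD) and 1.63% (CArG). No motif was shared by more than 2 of the 4 windows. GC content was 44.0% for Gphb5, 37.7% for Mmp10, 48.7% for C1s2 and 62.3% for Egfr, against a median of 52.7% over all windows.

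Each of the 5 genes had reads in every library, empty vector included, with 13 reads at the least. On a scale per length (TPM, computed here from normalized counts and exon length), Mmp10 was the highest with ADAR2 WT, at 53.0 ± 8.84 TPM, and then Gphb5 at 24.7 ± 0.092 and C1s2 at 9.11 ± 2.67 (SD, n = 2 each). Egfr at 4.19 ± 1.58 TPM and Myh11 at 3.95 ± 0.749 TPM did not differ beyond their spread. With ADAR2 E396A the order was Mmp10 at 18.1 ± 4.99 TPM, Gphb5 at 6.70 ± 1.31, C1s2 at 4.56 ± 1.13, Egfr at 2.04 ± 0.888 and Myh11 at 1.69 ± 0.961, where the last 2 again overlapped. With empty vector it was Mmp10 at 23.3 ± 15.7 TPM, Gphb5 at 4.81 ± 4.70, C1s2 at 3.65 ± 1.13, Egfr at 1.89 ± 0.610 and Myh11 at 0.784 ± 0.180. Gphb5 had 8.14 TPM in donor B and 1.49 TPM in donor A there, which placed it above C1s2 in 1 donor and below it in the other. In RNA of a whole culture, a gene made by fewer cells and one with less RNA per cell cannot be told apart.

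Gphb5 (ENSMUSG00000048982.3, chr12:75411722-75416781, minus strand, build mm10) had 222 and 212 normalized counts with ADAR2 WT, 51.2 and 65.4 with ADAR2 E396A, and 13.5 and 70.1 with empty vector, in donors A and B. Both ADAR2 WT libraries lay above the other 4, as the choice makes likely for all 5 genes. Of all genes tested, 18.7% had both ADAR2 WT libraries above both empty-vector libraries, and the share above all 4 others was not computed. The ADAR2 E396A values of Gphb5 lay between those of the empty-vector libraries. The ratio of ADAR2 WT to empty vector was 16.4 in donor A and 3.03 in donor B, and the fitted log2 fold change was 2.76 (SE 0.47), or 1.69 without donor A's empty-vector library and 3.84 without donor B's. The donors differed most in their empty-vector libraries. That of donor A held 13 Gphb5 reads (exact Poisson 95% interval 6.9 to 22.2, counting error only), against 72 reads in donor B. The ratio of donor B to donor A was 0.955 with ADAR2 WT, against 5.18 with empty vector. Gpha2, the alpha subunit that pairs with Gphb5 in thyrostimulin, had 7 reads in all 6 libraries together, and Tshr, the receptor gene, had 8.

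Myh11 (ENSMUSG00000018830.10, chr16:14194535-14291372, minus strand) had 146 and 181 normalized counts with ADAR2 WT, 42.4 and 95.9 with ADAR2 E396A, and 28.1 and 37.0 with empty vector. The 3 groups did not overlap, and the order from ADAR2 WT to empty vector was the same in each donor. The choice makes the place of ADAR2 WT likely, and the share of genes with all 3 groups apart was not computed. Of all genes tested, 19.4% had both ADAR2 WT libraries above both ADAR2 E396A libraries. Both ADAR2 E396A libraries were above both empty-vector libraries in 11.5%. The log2 fold change of ADAR2 WT over empty vector was 2.30 (SE 0.25), with 2.33 in donor A and 2.26 in donor B. Of the 13 other contractile proteins listed, 4 could be tested and 0 passed in any comparison. Tpm1, a tropomyosin, had 570 and 667 normalized counts with ADAR2 WT, 509 and 584 with ADAR2 E396A, and 487 and 503 with empty vector, or 0.32 on the log2 scale for ADAR2 WT over empty vector (SE 0.09, limma adjusted p = 0.200). Smtn, smoothelin, had 88.4 and 96.9 with ADAR2 WT, 154 and 158 with ADAR2 E396A, and 95.8 and 96.4 with empty vector, so it was highest with ADAR2 E396A (0.69 over empty vector, limma adjusted p = 0.999). Mylk, myosin light chain kinase, had 53.4 and 31.2 with ADAR2 WT, 77.8 and 83.7 with ADAR2 E396A, and 64.6 and 55.5 with empty vector. Tpm2, another tropomyosin, averaged 8.59 normalized counts over the 6 libraries. Acta2, smooth muscle actin, and Tagln, transgelin, had 25 and 30 reads over all 6 libraries and were not tested. These partners were named after their values were seen.

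Mmp10 (ENSMUSG00000047562.3, chr9:7502352-7510240, plus strand) had 451 and 543 normalized counts with ADAR2 WT, 138 and 198 with ADAR2 E396A, and 119 and 317 with empty vector. Both ADAR2 WT libraries were the highest, and the ADAR2 E396A values lay within the range of the empty-vector ones. The ratio of ADAR2 WT to empty vector was 3.80 in donor A and 1.72 in donor B, since the empty-vector level was 2.67 times as high in donor B as in donor A. The fitted log2 fold change was 1.35 (SE 0.24), or 0.84 without donor A's empty-vector library and 1.86 without donor B's.

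C1s2 (ENSMUSG00000079343.4, chr6:124624625-124636085, minus strand) had 108 and 156 normalized counts with ADAR2 WT, 55.2 and 75.8 with ADAR2 E396A, and 42.7 and 63.3 with empty vector. ADAR2 WT stood above the other groups, which overlapped each other. The ratios of ADAR2 WT to empty vector were 2.52 and 2.46 in donors A and B, the closest pair among the 5 genes, for a log2 fold change of 1.30 (SE 0.19).

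Egfr (ENSMUSG00000020122.16, chr11:16752203-16918158, plus strand) had 195 and 320 normalized counts with ADAR2 WT, 87.7 and 160 with ADAR2 E396A, and 92.7 and 140 with empty vector. Donor B was higher than donor A in each group, by a ratio of 1.64 with ADAR2 WT, 1.83 with ADAR2 E396A and 1.51 with empty vector. Within each donor ADAR2 WT was 2.11 and 2.28 times the empty vector, and the log2 fold change was 1.12 (SE 0.15). Egfros, an antisense gene inside the Egfr body, held 0.87 to 5.77 normalized counts. The strand setting is not given in the sources used here, so reads of the pair cannot be told apart. The low counts of Egfros do not show how reads in the shared stretch were assigned.

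**Figure D1:**
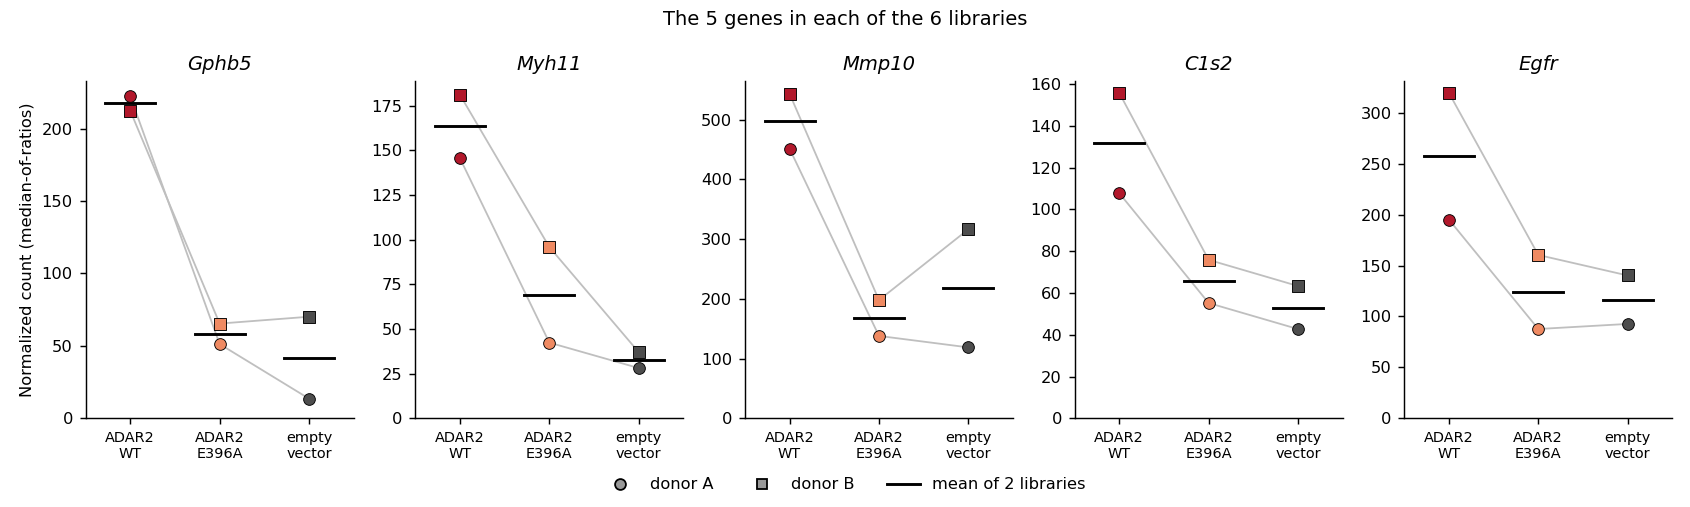
Normalized counts (vertical axes, from 0, 1 scale per gene) of the 5 genes in ADAR2 WT, ADAR2 E396A and empty-vector libraries. Circles are donor A, squares donor B, grey lines join the libraries of a donor and bars are means of 2; the ADAR2 WT points of every gene lie above its other 4, for example 222 and 212 for Gphb5 against 13.5 to 70.1.

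Over the whole table, 122 of 14958 genes tested (0.816%) passed limma's test of ADAR2 WT against empty vector at an adjusted p under 0.05, and 66 of them (0.441%) were higher. All 5 genes passed the filter on low values, and all 5 are among those 66, as the choice required. That place depended on the fit: 0 of the 5 passed without the donor block or without either ADAR2 WT library, and 3 without donor A's empty-vector library. In the authors' deposited table, whose log2 fold changes run from ADAR2 WT to empty vector, they stood at -2.79 for Gphb5, -2.33 for Myh11, -1.35 for Mmp10, -1.32 for C1s2 and -1.14 for Egfr. Their adjusted p in the authors' deposited table was 7.78e-06 for Myh11 and 0.0101 for Egfr, but 0.0641 for C1s2, 0.209 for Gphb5 and 0.302 for Mmp10, above 0.05.

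ADAR2 E396A was compared with empty vector to see what the protein changed without its enzyme activity. None of the 5 genes passed limma's test (1 had an unadjusted p under 0.05, as 3.89% of all genes had), and 2 of 14958 genes (0.0134%) did; edgeR and DESeq2 called 0 of the 5. This comparison shares the empty-vector libraries that took part in the choice, so it is not an independent test. Myh11 had a log2 fold change of 0.96 (SE 0.25), with 0.57 in donor A and 1.35 in donor B, an unadjusted limma p of 0.00467 and a limma adjusted p of 0.999. It was the 1 gene of the 5 with both ADAR2 E396A libraries above both empty-vector libraries, an arrangement found in 11.5% of all genes tested. Gphb5 had 0.87 (SE 0.47), C1s2 0.31 (SE 0.19), Egfr 0.06 (SE 0.15) and Mmp10 -0.23 (SE 0.24), each with a limma adjusted p of 0.999. Without donor A's ADAR2 E396A library Myh11 passed, with 1.37, and without donor B's Gphb5 passed, with 1.26. C1s2 and Myh11 were higher with ADAR2 E396A in both donors, 2 of 5, against 21.4% of all genes. In the authors' deposited table, where higher with ADAR2 E396A is negative, the adjusted p of all 5 was 0.99997, with log2 fold changes of -1.0 for Myh11, -0.83 for Gphb5, -0.32 for C1s2, -0.06 for Egfr and 0.25 for Mmp10.

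ADAR2 WT was compared with ADAR2 E396A to set the active enzyme against the dead one. Both ADAR2 WT libraries were above both ADAR2 E396A libraries for 5 of 5 genes, an arrangement found in 19.4% of all genes tested. None of the 5 passed limma's test over all genes, which 10 of 14958 (0.0669%) did, while all 5 had an unadjusted p under 0.05, as 12.4% of all genes had. The ADAR2 WT libraries had also chosen the genes, so the size and direction of these differences are no independent support. Mmp10 was 3.27 times as high with ADAR2 WT in donor A and 2.75 times in donor B, which the fit put at 1.58 on the log2 scale (SE 0.24, limma adjusted p = 0.0747). Egfr had 1.07 (SE 0.15, limma adjusted p = 0.0678), with ratios of 2.23 and 1.99. C1s2 had 0.99 (SE 0.19, limma adjusted p = 0.113), with 1.95 and 2.05. For these 3 genes the donors gave similar ratios. For Myh11 the fit gave 1.33 (SE 0.25, limma adjusted p = 0.113), with ratios of 3.44 and 1.89, and Gphb5 had 1.89 (SE 0.47, limma adjusted p = 0.189), with 4.34 and 3.25. Adarb1 was also somewhat higher with ADAR2 WT, as given above, and its part in these differences was not tested. Calls for the 5 genes moved with the settings, as did those over all genes. By DESeq2 3 passed (Myh11, Mmp10 and Egfr), beside 110 of 14958 genes. With TMM factors 2 passed (Mmp10 and Egfr), beside 39 of 14958. By edgeR's quasi-likelihood test 0 passed, beside 10 of 14958. Calls also changed when 1 library was left out, which leaves 1 library in a group. The log2 fold changes then lay between 0.93 for Myh11 without donor A's ADAR2 E396A library and 2.58 for Gphb5 without donor B's ADAR2 WT library.

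**Figure D2:**
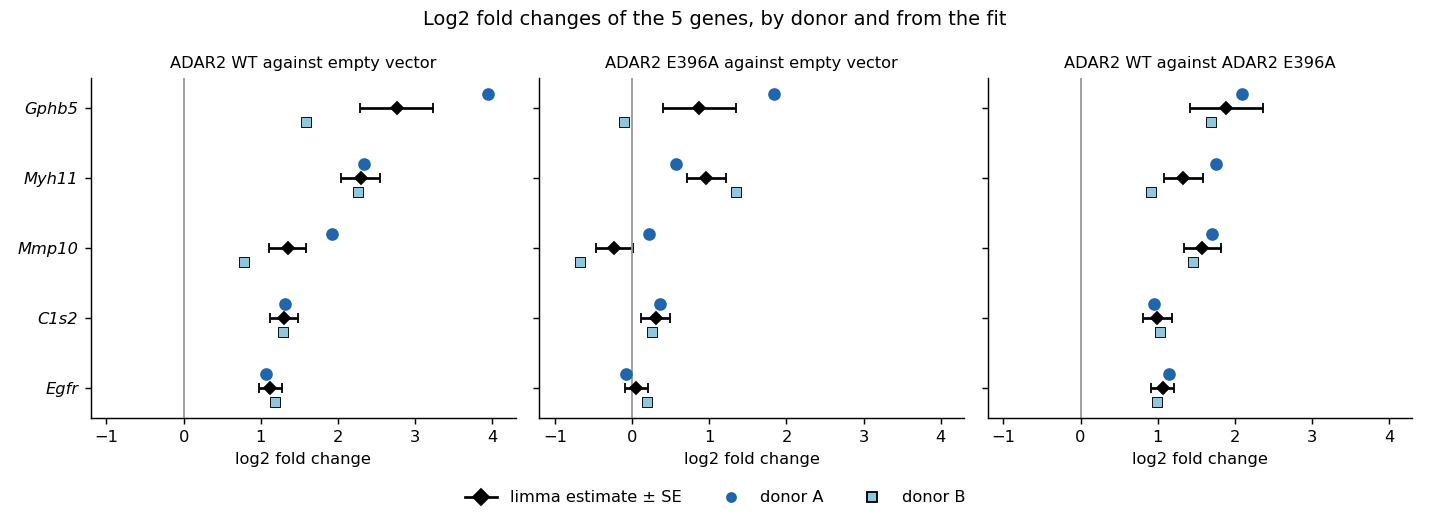
Log2 fold changes (horizontal axes) of the 5 genes in the 3 comparisons. Diamonds with bars are limma estimates ± SE, circles donor A and squares donor B; the donors lie close together for C1s2 and Egfr in each panel and apart for Gphb5 in the panels with empty vector, at 3.94 and 1.58 with ADAR2 WT.

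**Figure D3:**
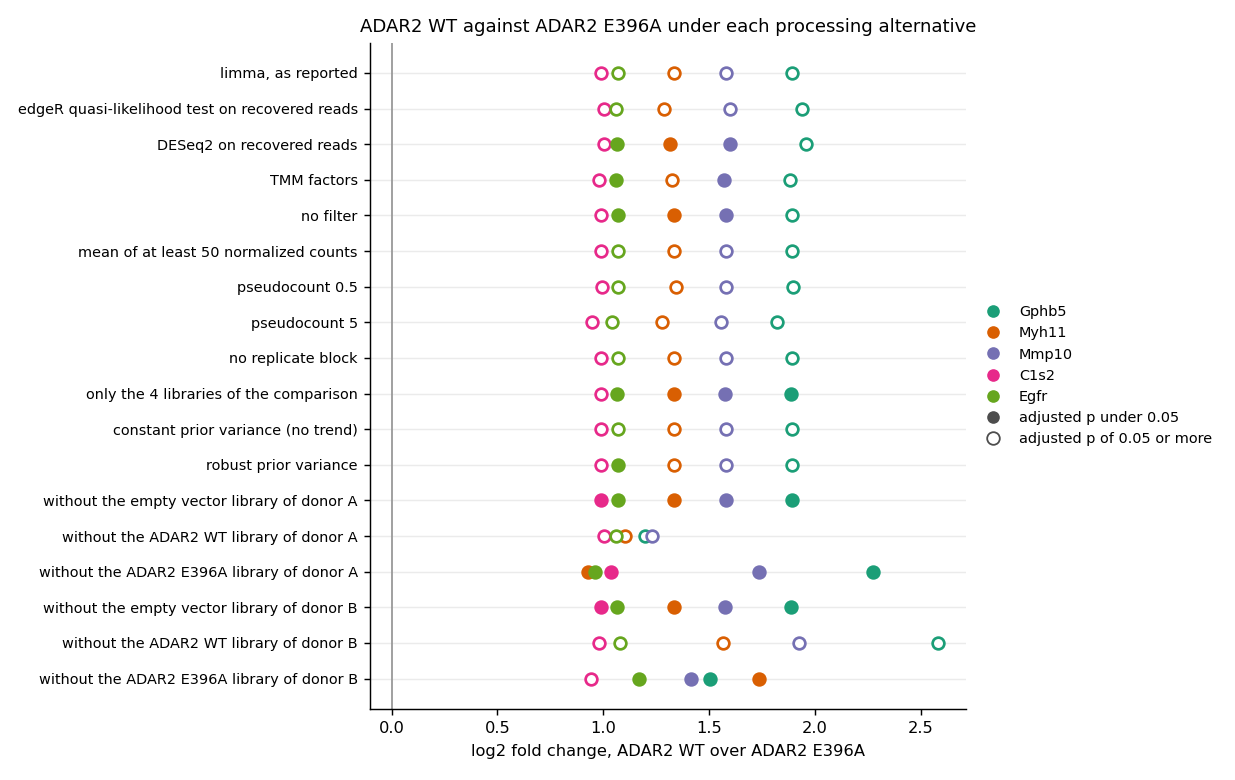
Log2 fold change of ADAR2 WT over ADAR2 E396A (horizontal axis) for the 5 genes under limma as reported and each processing alternative (rows); filled points have an adjusted p under 0.05. Every point lies above 0, between 0.93 for Myh11 without donor A's ADAR2 E396A library and 2.58 for Gphb5 without donor B's ADAR2 WT library, while filled points change from row to row.

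The nearest relatives and partners of each gene came next. Besides the 5 genes, 66 of 139 genes in 5 pathway lists could be tested, and 0 passed limma's test in any comparison. An unadjusted p under 0.05 was reached by 16 of them (24.2%) for ADAR2 WT against empty vector, 4 (6.1%) for ADAR2 E396A against empty vector and 16 (24.2%) for ADAR2 WT against ADAR2 E396A, beside 14.1%, 3.89% and 12.4% of all genes tested; edgeR called 0 in each. DESeq2 called Cblb, a ubiquitin ligase gene, in the first and the last, and Mmp13 in the last. Cblb was named after its values were seen, and its log2 fold change of ADAR2 WT over empty vector was -0.54 (SE 0.11, limma adjusted p = 0.0699). The median log2 fold change of ADAR2 WT over empty vector was -0.0025 over all genes tested. In the complement list it was 0.14 over 12 genes tested, 7 of them above 0, and in the matrix metalloproteinase list 0.01 over 11, also 7 above 0. It was -0.13 over 33 genes of the EGF receptor system, 10 above 0, and -0.01 over 10 genes of smooth muscle contraction, 5 above 0. None of the 8 other glycoprotein hormone genes had enough reads to be tested.

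C1s1, the twin of C1s2, had 77.7 and 85.4 normalized counts with ADAR2 WT, 24.6 and 52.3 with ADAR2 E396A, and 26.0 and 36.0 with empty vector. Both ADAR2 WT libraries lay above the other 4, and the share of all genes with that arrangement was not computed. Its log2 fold change of ADAR2 WT over empty vector was 1.38 (SE 0.28, limma adjusted p = 0.0811), close to the 1.30 of C1s2, and 1.16 over ADAR2 E396A (limma adjusted p = 0.184). The genes lie 82265 bases apart and are alike in sequence: over 2085 coding bases, 95.7% are identical, and 26.9% of the 50-base stretches of C1s2 transcripts occur in transcripts of another gene, C1s1 or Gm16567. The first 60 coding bases on chromosome 6 are shown from GENCODE vM21 transcripts, with the base that differs in capitals.
C1s2: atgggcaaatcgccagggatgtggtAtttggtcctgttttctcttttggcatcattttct
C1s1: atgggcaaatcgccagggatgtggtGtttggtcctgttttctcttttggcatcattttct

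The start codon at the left is also the atg near the end of the C1s2 promoter window above. How reads that match both genes were counted is not given in the sources used here, so the C1s2 and C1s1 values are uncertain relative to each other. For C1ra, which encodes the protease that activates C1s, ADAR2 WT over empty vector gave 0.76 on the log2 scale (SE 0.40, limma adjusted p = 0.437), and C1rb had 16 reads in all. C1qa, C1qb and C1qc, the recognition subunits of the same complex, had 0 reads in all 6 libraries. Among complement inhibitors, Cd55 had 0.48 (limma adjusted p = 0.229), Cr1l -0.04 (0.890), Cd59a -1.08 (0.363) and Cd46 -1.21 (0.202).

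Mmp13, collagenase-3, had 134 and 71.5 normalized counts with ADAR2 WT, 39.4 and 11.3 with ADAR2 E396A, and 28.1 and 30.2 with empty vector. Its ADAR2 WT libraries were the 2 highest, and the share of all genes with that arrangement was not computed. The log2 fold change of ADAR2 WT over empty vector was 1.72 (SE 0.40, limma adjusted p = 0.109). Mmp13 had the highest fold change of the 7 other metalloproteinases tested, which had a median of 0.09. Mmp12 had 1.40 (SE 0.81), with 3.32 in donor A and -0.52 in donor B, Mmp24 0.23, Mmp14 0.09, Mmp19 0.00, Mmp11 -0.41 and Mmp9 -0.57, with limma adjusted p of 0.477 or more. Mmp3, the closest relative of Mmp10, with 79.8% of 1426 aligned coding bases identical, had 0 reads in every library. So although 8.37% of the 50-base stretches of Mmp10 occur in Mmp3, no read was assigned there. The inhibitors of these proteases did not pass: Timp1 had 0.07 (limma adjusted p = 0.922), Timp2 0.01 (0.980), Reck -0.26 (0.524) and Timp3 -1.51 (0.209). No gene within 100 kb of Mmp10 had enough reads to be tested.

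Among other myosin heavy chains, Myh9, the main nonmuscle form, was at 25224 and 24762 normalized counts with ADAR2 WT, 25569 and 26349 with ADAR2 E396A, and 28132 and 24824 with empty vector, so that ADAR2 WT over empty vector stood at -0.08 on the log2 scale (SE 0.07, limma adjusted p = 0.656). Myh10, another nonmuscle form, had 0.46 (SE 0.15, limma adjusted p = 0.229), and Myh3, the embryonic skeletal muscle form, had 0.59 (SE 0.23, limma adjusted p = 0.294), with 0.23 in donor A and 0.96 in donor B. Only 0.34% of the 50-base stretches of Myh11 occur in Myh9 or Myh10. Srf, a transcription factor of smooth muscle genes, and its coactivators Mrtfa and Mrtfb had 0.03, -0.08 and -0.10 (limma adjusted p = 0.897, 0.728 and 0.703).

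Among the other EGF receptors, Erbb3 had 250 and 211 normalized counts with ADAR2 WT, 245 and 191 with ADAR2 E396A, and 256 and 207 with empty vector, or -0.00 on the log2 scale for ADAR2 WT over empty vector (SE 0.12, limma adjusted p = 0.993). Erbb2 had 40 reads over all libraries and Erbb4 had 0. Adam10, Adam17, Rhbdf1 and Rhbdf2, which shed or help shed the ligands, lay between -0.14 and 0.08 (limma adjusted p between 0.451 and 0.904). Of 14 feedback and target genes of the receptor, 4 were above 0. Of 11 ligands, 5 could be tested. Areg, amphiregulin, chosen after its values were seen, had the highest fold change among them, with 60.2 and 93.5 normalized counts with ADAR2 WT, 21.7 and 56.7 with ADAR2 E396A, and 31.2 and 66.2 with empty vector. Its log2 fold change over empty vector was 0.71 (SE 0.26, limma adjusted p = 0.276).

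The genes beside them on the chromosome were also read. Of 38 annotated genes within 100 kb of the 5, 15 could be tested. By limma, edgeR and DESeq2 0 of them passed in any comparison, and 3 (20.0%) had an unadjusted limma p under 0.05 for ADAR2 WT against empty vector, 1 (6.7%) for ADAR2 E396A against empty vector and 4 (26.7%) for ADAR2 WT against ADAR2 E396A. The shares of all genes were the 14.1%, 3.89% and 12.4% given above. Their log2 fold changes of ADAR2 WT over empty vector lay between -0.12 and 1.38. The highest was that of C1s1, and the next that of Eldr, a noncoding RNA gene 16995 bases from Egfr, with 1.24 (SE 0.45, limma adjusted p = 0.279). Eldr had 30.1 and 24.2 normalized counts with ADAR2 WT, 34.5 and 34.0 with ADAR2 E396A, and 6.25 and 18.5 with empty vector, so unlike Egfr it was no higher with ADAR2 WT than with ADAR2 E396A. The genes near Gphb5 lay between 0.03 and 0.04, and those near Myh11 between -0.09 and 0.18.

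The genes with the most similar patterns over the 6 libraries, by Pearson r of log2 normalized counts among 10123 genes, had much smaller fold changes. Closest to Gphb5 were Manf (r = 0.997), Taf11 (0.995) and Mfsd8 (0.994). Closest to Myh11 were Acbd3 (0.997), Arpp19 (0.993) and Cks1b (0.990), and to Mmp10 Hist1h2bc (0.997), Mrpl54 (0.997) and Wbp11 (0.997). Closest to C1s2 were Polr2j (0.996), Dzip3 (0.993) and Psmg3 (0.992), and to Egfr Strn3 (0.991), Epc2 (0.988) and Pmepa1 (0.987). The 6 points share donors and were searched over many genes, so these values are a description with no test. The log2 fold changes of ADAR2 WT over empty vector of these 15 genes lay between 0.10 for Taf11 and 0.55 for Dzip3, against 1.12 to 2.76 for the 5 genes.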

How the data were processed

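Ribosome-depleted RNA of 6 cultures was made into libraries with a KAPA Hyper Prep kit for an Illumina NovaSeq, per the labels' protocols. STAR 2.6.1a, featureCounts, DESeq2 1.18.1 and the mm10 build are named in the submitters' processing notes. No source used here gives the strand or multi-mapping settings. For each construct the authors deposited 1 table of 55450 genes, 2 in all. Per the file headers, a table holds normalized counts of 4 libraries (a signal that is at least 0), a mean, a log2 fold change with its standard error, a Wald statistic (a score) and p-values. The log2 fold changes deposited by the authors are empty vector over construct; those computed here are construct over empty vector.

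Library columns carry no group name: a column found in both tables was read as empty vector and the others as the construct of their table. Every value came out as whole reads within 0.001 of a read (100%), so reads were recovered, scaled by median-of-ratios factors over 6 libraries, filtered with edgeR's filterByExpr (14958 genes) and tested with limma 3.58.1 in R 4.3.3. Values entered as log2(normalized count + 1), with group and donor as terms, a prior variance that follows the mean, and Benjamini-Hochberg adjustment at 0.05. The pseudocount understates changes of low genes. TPM was computed from normalized counts and the exon bases of GENCODE vM21, in which all 55450 gene IDs were found.

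The labels describe 2 donors, each construct being compared with the empty vector of the same donor, but not which column is which. The donor pairing was read from the authors' deposited Wald statistics: DESeq2 fitted with it returned them with a largest difference that rounds to 0 over 28601 genes for ADAR2 WT and of 1e-04 over 28872 genes for ADAR2 E396A, against 13.8 and 6.08 with donors crossed and 6.67 and 2.03 without donors. With 1 library per donor and group, p-values rest on the spread left after the group and donor terms, with 2 residual degrees of freedom. That spread is drawn toward a prior variance estimated over all genes tested. Differences between libraries and between the mice in their response to a construct cannot be told apart in it.

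The 5 genes, the gene lists and the limma setting were chosen with earlier results of these data known, and the lists support nothing by themselves. Named besides the 5 genes are their relatives and short pathway roles (at most 8 genes, with values where they averaged 10 normalized counts or more), overlapping genes, the 3 most similar genes each, and the genes beside the threshold. Areg, Cblb, Eldr, Kit, Itga2b, Myh3, the contractile proteins and the other metalloproteinases tested, and genes named for their low reads, were picked with their values in view. The alternatives tried were DESeq2 1.42.0, edgeR 4.0.16, TMM factors, other filters and pseudocounts, no donor term, 4 libraries alone, each library left out, and, added after the data were seen, a constant and a robust prior variance. A withheld item is not reported here.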

Additional observations from a re-analysis of the deposited data

Results flagged for a closer look

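Between the donors the log2 fold change of ADAR2 E396A over empty vector differed in sign for 3 of the 5 genes. Gphb5 had 1.85 in donor A and -0.0996 in donor B, Mmp10 0.215 in donor A and -0.675 in donor B, and Egfr -0.0792 in donor A and 0.192 in donor B. With 1 library per donor and group these differences were not tested. For Gphb5 and Mmp10 the empty-vector library of donor B was 5.18 and 2.67 times that of donor A, while the ADAR2 E396A library of donor B was 1.28 and 1.44 times that of donor A.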

How the results depend on the processing

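For ADAR2 WT against empty vector 122 genes and 5 of the 5 passed. The numbers of genes were 212 with DESeq2, 220 with no filter, 58 among genes averaging 50 normalized counts or more, 1237 with the 4 libraries alone and 0 with a constant prior variance (1556 at an unadjusted p under 0.05). Without the donor block, the replicate pairing used here, 2 genes and 0 of the 5 passed for that comparison, 1 gene for ADAR2 E396A against empty vector, and 0 genes for ADAR2 WT against ADAR2 E396A (732 at an unadjusted p under 0.05). Of the 5 genes, 3 passed with the filter at 50, 0 with a constant prior variance and 3 with a robust one. Leaving out 1 library gave 1 to 1217 genes and 0 to 5 of the 5. Without donor A's ADAR2 WT library 1 gene passed and without donor B's 6 (0 of the 5 each time). Without donor A's empty-vector library it was 66 genes and 3 of the 5, without donor B's 913, and without the ADAR2 E396A libraries 941 (donor A) and 1217 (donor B). So the place of these genes among the called ones rests on the donor pairing, on both ADAR2 WT libraries and on the form of the variance prior. Since the genes were chosen for high fold changes in these same libraries, a positive sign under every alternative was likely in advance. The log2 fold change of each did stay positive, which is a description only. It lay between 1.69 and 3.84 for Gphb5, 2.07 and 2.53 for Myh11, 0.84 and 1.86 for Mmp10, 1.24 and 1.34 for C1s2, and 1.03 and 1.22 for Egfr. Without donor A's empty-vector library Myh11 stood above Gphb5, and Mmp10 stood below C1s2 and Egfr. Without donor A's ADAR2 WT library Mmp10, at 0.9996, also stood below Egfr at 1.11 and C1s2 at 1.31. Mmp10 stood slightly below C1s2 by edgeR (1.281 against 1.313) and by DESeq2 (1.312 against 1.316).

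For ADAR2 E396A against empty vector 2 genes and 0 of the 5 passed. DESeq2 gave 7, no filter 5, the 4 libraries alone 1 and a constant prior variance 0 (757 at an unadjusted p under 0.05). Leaving out 1 library gave 1 to 127 genes, with 127 (donor A) and 120 (donor B) when an ADAR2 E396A library was left out, 8 and 7 when an empty-vector library was, and 1 without donor A's ADAR2 WT library. Of the 5 genes, 0 to 1 passed: Myh11 (1.37) without donor A's ADAR2 E396A library, and Gphb5 (1.26) without donor B's. The log2 fold change lay between -0.20 and 1.95 for Gphb5, turning negative without donor A's empty-vector library. It lay between -0.74 and 0.28 for Mmp10, turning positive without donor B's empty-vector library. For Egfr it lay between -0.046 and 0.16, at -0.037 without donor B's empty-vector library and -0.046 without donor B's ADAR2 E396A library; the cause was not tested.

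For ADAR2 WT against ADAR2 E396A 10 genes and 0 of the 5 passed. DESeq2 gave 110 and 3, TMM factors 39 and 2, no filter 102 and 3, the 4 libraries alone 194 and 4, a robust prior variance 29 and 1, the filter at 50 gave 3 genes and a constant prior variance 0 (1359 at an unadjusted p under 0.05). Leaving out 1 library gave 0 to 844 genes and 0 to 5 of the 5. Without donor A's and donor B's ADAR2 WT library 0 and 2 genes passed, without their ADAR2 E396A libraries 844 and 217, and without their empty-vector libraries 467 and 425. With 2 residual degrees of freedom (1 with a library left out) the calls lean on the variance prior, and a low call count does not show that values did not differ. Counts of 13 to 471 reads per gene and library set the depth. Reads shared by C1s2 and C1s1, and reads of the Adarb1 transgene and the endogenous gene, cannot be separated.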
